A study of Mus musculus with 11 samples.

Results

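The Slc25 genes encode the mitochondrial carrier family, proteins of the inner mitochondrial membrane that exchange nucleotides, phosphate, carboxylates, amino acids, cofactors and metal ions between the matrix and the cytosol. Genes were taken as members when their single annotated symbol begins with Slc25a and a number, and 46 of the 22180 genes measured met that rule. Carriers with other symbols were left out by the rule. Each of the 46 had a single probe set of its own on the array, and the gene IDs and symbols of all 46 matched the RefSeq gene table (GRCm38.p6). In all, 4 members, Slc25a18, Slc25a31, Slc25a41 and Slc25a54, lay in the dimmest 40% of genes, where a change may be hidden.

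Most carriers share a fold built of repeated pairs of membrane helices and work by binding their substrate alternately from each side of the membrane. They set which metabolites reach the respiratory chain, heme synthesis, the folate cycle and the making of mitochondrial DNA and RNA. Hematopoietic stem cells (HSCs), from which all blood cells descend, are mostly dormant and rely little on mitochondrial respiration at rest, and interferon drives them into cycle.

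RNA came from mouse HSCs isolated by cell sorting and was hybridised to 11 arrays in 4 groups, named here as in the sample titles. PBS (3 arrays) is the group given the injection buffer, ATRA (3 arrays) received all-trans retinoic acid, the active form of vitamin A, and pIC (2 arrays) received polyI:C, a double-stranded RNA that mimics a virus and raises interferon. RApIC (3 arrays) received ATRA and afterwards polyI:C. The sources used here do not give strain, age, doses, intervals, the sorting gate or any pooling of mice. The p-values therefore cover the spread among these samples and no more, and that spread may be technical. Values are log2 intensities. A difference is that of the group means in log2 units, given ± its standard error, and comes from a single limma fit of every gene on every array. "Called" means an adjusted p (Benjamini-Hochberg, over all genes of the comparison) under 0.05.

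Array medians ran from 6.19 to 6.28. RApIC replicate 2 stood apart: it lay at -4.53 on the first principal component, against 35.8 and 23.3 for RApIC replicates 1 and 3, 35 and 37.8 for the pIC arrays and -24.5 to -15.2 for the 6 arrays without polyI:C. HSC markers were well represented, with a mean log2 intensity of 12 markers of 9.85 to 9.94 in PBS and 9.87 to 9.96 in ATRA. That mean was 9.16 to 9.21 in pIC and 9.13 to 9.71 in RApIC. In pIC against PBS 8 of the 12 fell, beside 5.75% of all genes. Of 15 erythroid markers listed, 9 were measured and 5 rose, beside 8.94% of all genes. The list means were 8.38 to 8.63 in PBS, 8.16 to 8.24 in ATRA, 9.50 to 9.61 in pIC and 8.04 to 9.24 in RApIC. For this list mean every ATRA array was below every PBS array. Of 17 T- and NK-cell markers, 3 rose, with list means of 5.98 to 6.16, 6.11 to 6.35, 7.07 to 7.56 and 6.10 to 7.96 in the same order. Of 13 macrophage, monocyte and dendritic markers 3 rose, but the median difference of that list was -0.06. Its means were 6.21 to 6.38, 6.43 to 6.48, 6.87 to 6.93 and 6.64 to 7.01 in the same order. Without RApIC replicate 2 the counts were 9 HSC markers lower, 7 erythroid and 10 T- and NK-cell markers higher. In that fit 4052 of all genes were called, against 3260 with all arrays. Without pIC replicate 2, which leaves a single pIC array, these counts were lower, as was the number of all genes called. In sorted bulk RNA, fewer cells of a type and less RNA per cell cannot be told apart, and the part of these markers in the results below was not tested.

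The comparison of pIC with PBS asked how an interferon-raising signal changes HSCs. The carrier genes did not move as a block: 6 of the 46 rose and 2 fell. Slc25a21, Slc25a22, Slc25a44, Slc25a33, Slc25a5 and Slc25a16 rose by 0.40 to 1.50 log2 units, and Slc25a27 and Slc25a37 fell by 1.63 and 0.53 log2 units. The called share of 17.4% lay close to the 14.7% of all genes called in that comparison (13% against 8.94% for rises and 4.35% against 5.75% for falls). The median difference of the 46 genes was 0.07, beside 0.0013 over all genes, and 28 of the 46 differences were above 0. In 25 members (54.3%) the pIC and PBS arrays did not overlap, beside 43% of all genes. The count of 8 fell to 2, Slc25a22 and Slc25a27, without pIC replicate 1 or without pIC replicate 2, to 5 without PBS replicate 1 and to 4 without PBS replicate 2, and rose to 12 without RApIC replicate 2. The number of all genes called moved with it, from 3260 with all arrays to 963 and 664 with pIC replicates 1 and 2 left out in turn, 2083 and 1959 with PBS replicates 1 and 2 left out, and 4052 without RApIC replicate 2.

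**Figure D1:**
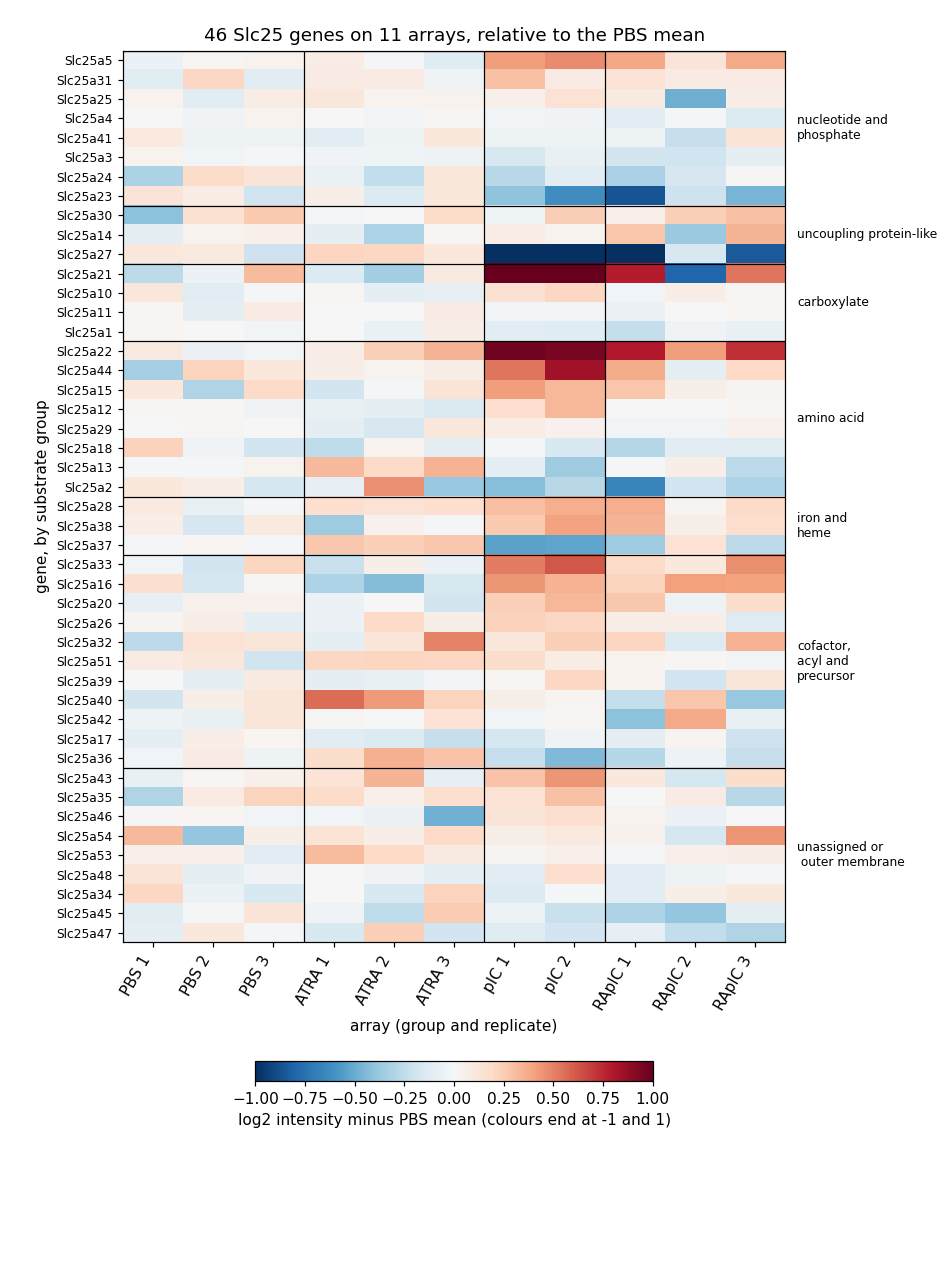
Log2 intensity of each of the 46 Slc25 genes (vertical axis, by substrate group) on each of the 11 arrays (horizontal axis), minus that gene's PBS mean, with colours ending at -1 and 1. Slc25a21 and Slc25a22 are the darkest rises and Slc25a27 the darkest fall on the pIC arrays, and RApIC replicate 2 is paler than its neighbours in these genes, except Slc25a21, which is below the PBS mean there.

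Among the carriers of nucleotides and phosphate, 1 of 8 rose. Slc25a5, an ADP/ATP exchanger that hands newly made ATP to the cytosol, read 10.76, 10.84 and 10.85 on the PBS arrays and 11.23 and 11.29 on the pIC arrays. It read 10.90, 10.80 and 10.70 on the ATRA arrays and 11.21, 10.95 and 11.20 on the RApIC arrays. All 5 arrays with polyI:C lay above all 6 without it. The rise in pIC against PBS was 0.44 ± 0.10 (adjusted p = 0.0154), and the call was lost without pIC replicate 1 (adjusted p = 0.0733) or pIC replicate 2 (0.111).

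Slc25a4, the ADP/ATP exchanger best known from heart and muscle, differed by -0.03 ± 0.07 (95% interval -0.19 to 0.13, adjusted p = 0.852), and its 11 values lay between 9.58 and 9.76. Slc25a31, the ADP/ATP exchanger of the germ line, differed by 0.19 ± 0.11 and was not called. Slc25a3, which imports the phosphate that ATP synthase needs, differed by -0.11 ± 0.07 (adjusted p = 0.367). It lay between 10.61 and 10.70 on the 6 arrays without polyI:C and between 10.46 and 10.59 on the 5 with it, a small gap with no overlap.

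The ATP-Mg/phosphate carriers, which adjust the matrix content of adenine nucleotides, are encoded by Slc25a23, Slc25a24, Slc25a25 and Slc25a41. Slc25a23 read 9.97, 9.92 and 9.65 on the PBS arrays, 9.91, 9.71 and 9.95 on the ATRA arrays, 9.44 and 9.23 on the pIC arrays, with 8.98, 9.64 and 9.38 on the RApIC arrays. Every array with polyI:C was below every array without it, although RApIC replicate 2 and PBS replicate 3 were nearly level. The difference from PBS was -0.51 ± 0.17 in the pIC group and did not pass the test (adjusted p = 0.0765), but did without RApIC replicate 2 (0.0351). Slc25a24 differed by -0.19 ± 0.16 and Slc25a25 and Slc25a41 by less than 0.1 in either direction, with overlapping arrays.

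Of the uncoupling protein-like carriers with an Slc25a symbol, 1 of 3 fell. Slc25a27, best known as a brain uncoupling protein, read 9.04, 9.03 and 8.73 on the PBS arrays, 9.15, 9.14 and 9.04 on the ATRA arrays, 7.55 and 7.05 on the pIC arrays, with 7.94, 8.77 and 8.09 on the RApIC arrays. The pIC arrays were lowest, RApIC replicates 1 and 3 lay between, and RApIC replicate 2 lay within the PBS range. The fall in pIC against PBS was -1.63 ± 0.22, to 0.322 of the PBS level (adjusted p = 0.00243). The call held with each of the 11 arrays left out in turn (adjusted p between 9.64e-05 and 0.0336). Slc25a14 and Slc25a30, both relatives of the uncoupling proteins, differed by 0.06 ± 0.18 and 0.10 ± 0.18 and were not called.

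Of the carboxylate carriers, 1 of 4 rose, and it was the gene with the largest rise among the members. Slc25a21 carries 2-oxoadipate and related acids, products of lysine and tryptophan breakdown. It read 6.19, 6.39 and 6.77 on the PBS arrays, 6.31, 6.11 and 6.54 on the ATRA arrays, 8.01 and 7.88 on the pIC arrays, with 7.23, 5.66 and 6.98 on the RApIC arrays. The pIC arrays were at least 1 log2 unit above each PBS array, whereas RApIC replicate 2 gave the lowest value of all 11. The rise in pIC against PBS was 1.50 ± 0.37 (2.82-fold, adjusted p = 0.0226). The call was lost without PBS replicate 1 (adjusted p = 0.0691), PBS replicate 2 (0.0631), pIC replicate 1 (0.123) or pIC replicate 2 (0.109).

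The citrate carrier Slc25a1, which exports citrate for fatty acid synthesis, differed by -0.12 ± 0.08 (adjusted p = 0.42). The dicarboxylate carrier Slc25a10 differed by 0.18 ± 0.09 (adjusted p = 0.213). The oxoglutarate/malate carrier Slc25a11, a partner of the aspartate/glutamate carriers in the malate-aspartate shuttle, differed by -0.03 ± 0.08 (adjusted p = 0.889), with a sign that turned to 0.0143 without PBS replicate 3.

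Of the 8 amino acid carriers, 2 rose. Slc25a22, which brings glutamate into the matrix, read 8.61, 8.46 and 8.50 on the PBS arrays, 8.59, 8.76 and 8.87 on the ATRA arrays, 9.49 and 9.48 on the pIC arrays, with 9.32, 8.94 and 9.25 on the RApIC arrays. The pIC arrays were the highest, and the lowest RApIC array was still above the highest ATRA array. The rise in pIC against PBS was 0.96 ± 0.12 (1.94-fold, adjusted p = 0.00185), and the call held with each of the 11 arrays left out (adjusted p between 0.000149 and 0.0257). Slc25a18, the other glutamate carrier, differed by -0.08 ± 0.13 (95% interval -0.37 to 0.21) with overlapping arrays.

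Slc25a44, a carrier of branched-chain amino acids, read 7.81, 8.37 and 8.25 on the PBS arrays and 8.68 and 8.98 on the pIC arrays. It read 8.21, 8.18 and 8.21 on the ATRA arrays and 8.51, 8.04 and 8.34 on the RApIC arrays, so the RApIC values fell on both sides of the ATRA values. Its rise in pIC against PBS was 0.68 ± 0.17 (1.61-fold, adjusted p = 0.0252), and the call was lost without PBS replicate 1 (adjusted p = 0.061), pIC replicate 1 (0.0612) or pIC replicate 2 (0.198).

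Slc25a12 and Slc25a13 encode the aspartate/glutamate carriers of the malate-aspartate shuttle, which moves reducing equivalents into the matrix. Slc25a12 differed by 0.25 ± 0.08 (adjusted p = 0.0553) and Slc25a13 by -0.22 ± 0.11 (adjusted p = 0.241), and neither passed the test in pIC against PBS. The ornithine carrier Slc25a15 differed by 0.38 ± 0.15 (adjusted p = 0.124). Its relative Slc25a2 (-0.35 ± 0.21) and the basic amino acid carrier Slc25a29 (0.06 ± 0.09) were not called.

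Of the iron and heme carriers, Slc25a37 (mitoferrin-1) and Slc25a28 (mitoferrin-2) bring iron into the matrix, and Slc25a38 brings in glycine for the first step of heme synthesis. Red-cell precursors depend on Slc25a37 and Slc25a38, while Slc25a28 is expressed widely. Slc25a37 read 10.63, 10.65 and 10.63 on the PBS arrays, 10.90, 10.87 and 10.90 on the ATRA arrays, 10.10 and 10.11 on the pIC arrays, with 10.29, 10.78 and 10.38 on the RApIC arrays. The replicates of the PBS, ATRA and pIC groups lay close together (SD 0.015 in PBS, 0.018 in ATRA and 0.0044 in pIC), and the ATRA arrays were the highest and the pIC arrays the lowest of all. Slc25a37 fell by 0.53 ± 0.12 in pIC against PBS, to 0.692 of the PBS level (adjusted p = 0.0183), and the call was lost without PBS replicate 2 (adjusted p = 0.0508), pIC replicate 1 (0.0976) or pIC replicate 2 (0.105).

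Slc25a28 read 10.15, 9.98 and 10.04 on the PBS arrays and 10.36 and 10.42 on the pIC arrays, the opposite order to Slc25a37. Its difference of 0.33 ± 0.10 just missed the threshold (adjusted p = 0.0520) and passed it without RApIC replicate 1 or RApIC replicate 2 (0.0229 without the latter). Slc25a38 differed by 0.33 ± 0.14 (adjusted p = 0.143). On the same arrays the median erythroid marker stood 0.99 and 1.01 log2 units above the PBS mean in the pIC group. There Slc25a37 read lower than on any PBS array and Slc25a38 higher, and the part of erythroid cells was not tested.

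Of the 11 carriers of cofactors, acyl groups and nucleotide precursors, 2 rose. Slc25a33, which carries pyrimidine nucleotides for mitochondrial DNA and RNA synthesis, read 7.56, 7.40 and 7.81 on the PBS arrays, 7.37, 7.65 and 7.53 on the ATRA arrays, 8.10 and 8.21 on the pIC arrays, with 7.78, 7.70 and 8.06 on the RApIC arrays. It rose by 0.57 ± 0.14 in pIC against PBS (1.48-fold, adjusted p = 0.0237). The call was lost without PBS replicate 1 (adjusted p = 0.0628), PBS replicate 2 (0.0719), pIC replicate 1 (0.0864) or pIC replicate 2 (0.154). The second pyrimidine nucleotide carrier, Slc25a36, went the other way: it read 9.15, 9.26 and 9.13 on the PBS arrays and 8.95 and 8.74 on the pIC arrays. That difference of -0.34 ± 0.10 did not pass the test (adjusted p = 0.0516), and did without RApIC replicate 2 (0.0317).

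Slc25a16, a carrier linked to the coenzyme A content of the matrix, read 8.83, 8.49 and 8.68 on the PBS arrays, 8.36, 8.24 and 8.51 on the ATRA arrays, 9.11 and 9.02 on the pIC arrays, with 8.89, 9.08 and 9.07 on the RApIC arrays. RApIC replicate 2 was not lower than the other RApIC arrays here. The rise in pIC against PBS was 0.40 ± 0.12 (1.32-fold, adjusted p = 0.0475). This call sat at the threshold and was lost without any 1 of PBS replicate 2 (adjusted p = 0.13), PBS replicate 3 (0.0912), ATRA replicate 1 (0.0671), ATRA replicate 2 (0.051), pIC replicate 1 (0.23), pIC replicate 2 (0.143) or RApIC replicate 3 (0.0655).

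The carnitine/acylcarnitine carrier Slc25a20, the entry gate of fatty acids for oxidation, differed by 0.29 ± 0.11 (adjusted p = 0.104) and was called without RApIC replicate 2 (0.0485). The folate carrier Slc25a32 differed by 0.17 ± 0.19 and the NAD carrier Slc25a51 by 0.13 ± 0.10, and neither was called. The other 5 genes in that role, Slc25a17, Slc25a26, Slc25a39, Slc25a40 and Slc25a42, differed by -0.11 to 0.22 without a call. Nor were any of the 9 members without an agreed substrate, or in the outer membrane, called, with differences from -0.15 (Slc25a47) to 0.36 (Slc25a43).

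**Figure D2:**
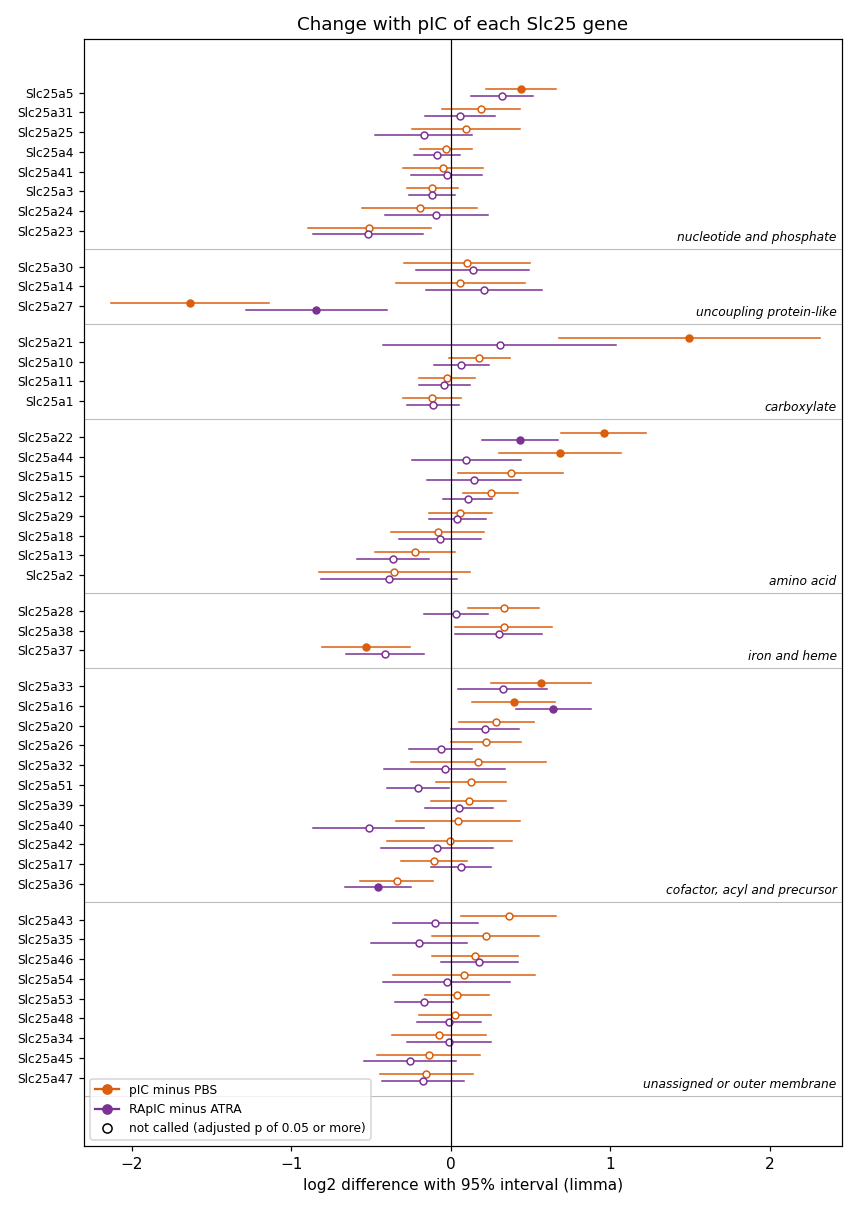
Log2 difference with its 95% interval for each Slc25 gene (vertical axis, by substrate group) in pIC minus PBS (orange) and RApIC minus ATRA (purple), with filled points for called genes. There are 8 filled orange and 4 filled purple points, and most intervals cross 0.

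In several of the family's pairs of carriers with the same substrate, 1 gene was called and the other was not, or the values lay on opposite sides of 0. The differences between partners were not tested. Side by side, the pIC minus PBS differences were 0.44 and -0.03 for the ADP/ATP exchangers Slc25a5 and Slc25a4. For the glutamate carriers Slc25a22 and Slc25a18 the differences were 0.96 and -0.08, but Slc25a18 was dim (mean 5.76 over all arrays). A flat value there may reflect background signal, so that pair says little. The differences were 0.57 and -0.34 for the pyrimidine nucleotide carriers Slc25a33 and Slc25a36, and 0.33 and -0.53 for the mitoferrins Slc25a28 and Slc25a37. For the aspartate/glutamate carriers Slc25a12 and Slc25a13 they were 0.25 and -0.22. The ATP-Mg/phosphate carriers Slc25a23 and Slc25a24 both lay below 0, at -0.51 and -0.19.

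**Figure D3:**
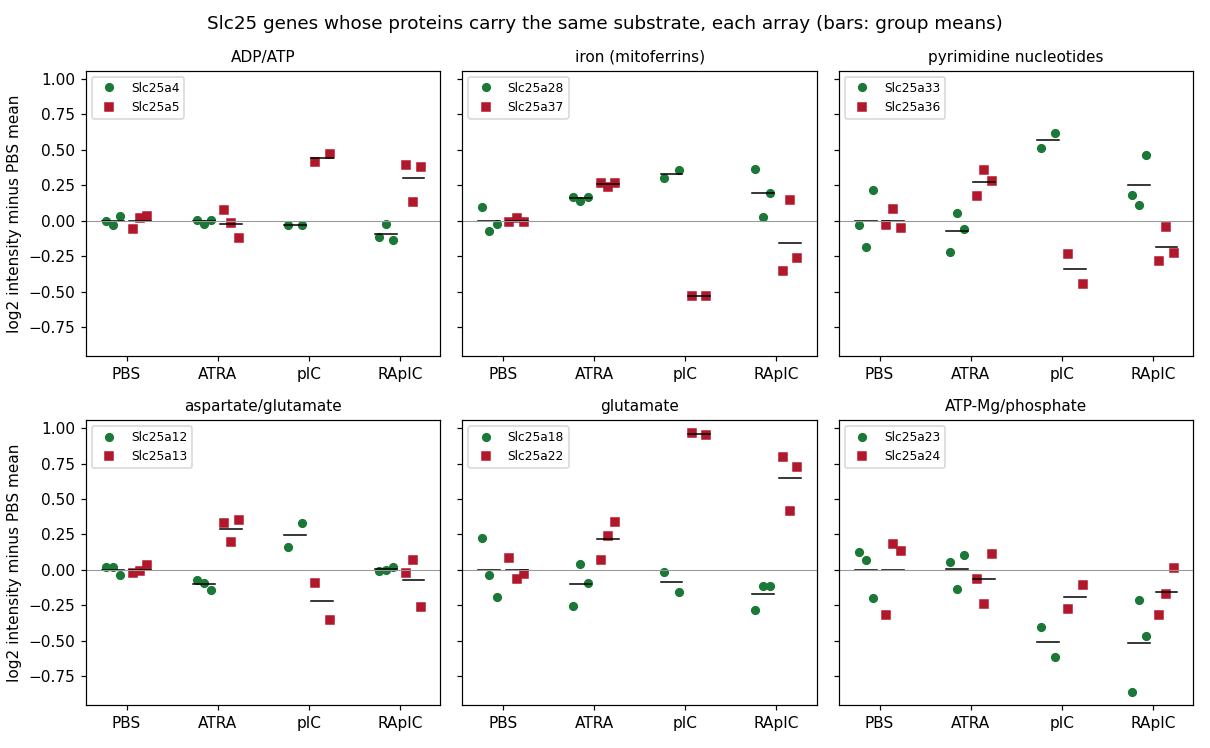
Log2 intensity minus the gene's PBS mean (vertical axis) on each array of the 4 groups (horizontal axis), for 6 pairs of Slc25 genes whose proteins carry the same substrate, with bars at group means. On the pIC arrays Slc25a33 and Slc25a28 lie above the PBS mean and their partners Slc25a36 and Slc25a37 below it, and the Slc25a4 points stay near 0 in all 4 groups.

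Promoter windows from RefSeq (GRCm38.p6), reaching from 250 bases before to 50 bases after each start, were available for 36 of the 46 members, some with more than 1 start. The windows were searched on both strands for 6 motifs. The interferon-stimulated response element (ISRE) was taken as 2 blocks of GAAA with any 2 bases between them. The E-box, which Myc-family and related factors bind, was CACGTG. The ETS motif was CCGGAAG and the GC box GGGCGG. The CCAAT box was taken as those 5 letters, and the NRF1 motif as GCGC, any single base and then TGCGC. The ISRE was in windows of 2 members, Slc25a15 and Slc25a22 (5.56%, beside 3.94% of 17492 protein-coding genes), and the E-box in 7, with Slc25a33 and Slc25a36 among them (19.4%, beside 8.91%). The NRF1 motif was in 2 members (5.56%, beside 7.17%), the ETS motif in 7 (19.4%, beside 12.9%), the CCAAT box in 19 (52.8%, beside 42.3%) and the GC box in 30 (83.3%, beside 49.2%). These matches describe letters and not occupied sites.

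The 250 bases before the start are printed 5′ to 3′ on the gene's strand, with motif matches in capitals, for the gene with the smallest adjusted p in pIC against PBS and for the pyrimidine carrier pair. That of Slc25a22 (1 of its 3 listed starts, chr7:141435376-141435625, minus strand) holds the ISRE, overlapping copies of the GC box's reverse strand and a CCAAT box. It was printed because it holds the ISRE, and the windows of the other Slc25a22 starts held only a GC box. Those of Slc25a33 (chr4:149774268-149774517, minus strand) and Slc25a36 (chr9:97111042-97111291, minus strand) hold the same 3 kinds of motif, an E-box, a CCAAT box and a GC box, in genes whose pIC values lay on opposite sides of PBS.
Slc25a22: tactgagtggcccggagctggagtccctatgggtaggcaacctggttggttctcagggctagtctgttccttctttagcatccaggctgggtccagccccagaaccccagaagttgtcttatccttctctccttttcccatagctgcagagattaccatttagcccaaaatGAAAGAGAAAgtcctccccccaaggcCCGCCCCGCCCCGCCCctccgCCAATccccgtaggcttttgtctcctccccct
Slc25a33: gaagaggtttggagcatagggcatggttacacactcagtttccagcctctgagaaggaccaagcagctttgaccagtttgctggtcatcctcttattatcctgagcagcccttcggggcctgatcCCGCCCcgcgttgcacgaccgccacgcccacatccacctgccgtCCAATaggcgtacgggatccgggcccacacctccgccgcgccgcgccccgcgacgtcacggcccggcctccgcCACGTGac
Slc25a36: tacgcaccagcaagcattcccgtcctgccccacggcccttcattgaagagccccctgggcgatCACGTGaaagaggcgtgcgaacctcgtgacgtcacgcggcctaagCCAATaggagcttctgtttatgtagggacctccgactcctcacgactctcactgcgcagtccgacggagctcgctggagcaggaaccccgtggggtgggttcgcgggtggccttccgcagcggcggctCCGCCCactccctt

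The comparison of RApIC with ATRA gave the response to polyI:C in mice that had first received retinoic acid. There 2 of the 46 members rose, Slc25a16 and Slc25a22, and 2 fell, Slc25a27 and Slc25a36. The called share of 8.7% stood beside 7.21% of all genes (4.35% against 3.5% for rises and 4.35% against 3.71% for falls), and the median difference was -0.03. In 14 members (30.4%) the RApIC and ATRA arrays did not overlap, beside 24.1% of all genes. The count of 4 was 12 without RApIC replicate 2, beside 14.5% of all genes then called, with 6 rises (beside 6.98%) and 6 falls (beside 7.51%). It was 2 without ATRA replicate 1, where 594 of all genes were called, against 1599 with all arrays. It was 1, Slc25a16, without ATRA replicate 2 (624 of all genes), ATRA replicate 3 (755), RApIC replicate 1 (579) or RApIC replicate 3 (476).

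Slc25a16 rose by 0.64 ± 0.11 (1.56-fold, adjusted p = 0.00777), with every RApIC array at or above 8.89 and every ATRA array at or below 8.51, and the call held with each array left out. Slc25a22 rose by 0.43 ± 0.11 (adjusted p = 0.0385). That call held without RApIC replicate 2 (adjusted p = 0.00402) and was lost without any other single array, at adjusted p between 0.0503 and 0.148. Slc25a36 read 9.35, 9.54 and 9.46 on the ATRA arrays and 8.90, 9.13 and 8.95 on the RApIC arrays, a fall of 0.46 ± 0.09 (adjusted p = 0.0174). Its call was lost without ATRA replicate 2 (0.0676), ATRA replicate 3 (0.0567), RApIC replicate 1 (0.0707) or RApIC replicate 3 (0.0734). Slc25a27 fell by 0.84 ± 0.20, to 0.557 of the ATRA level (adjusted p = 0.0308), and by 1.10 without RApIC replicate 2. Its call was lost without any 1 of the 3 ATRA arrays (0.0953, 0.093 and 0.0751) or RApIC replicates 1 (0.117) and 3 (0.114).

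Slc25a37 missed the threshold (-0.41 ± 0.11, adjusted p = 0.0502), as did Slc25a5 (0.32 ± 0.09, adjusted p = 0.0546). Both were called without RApIC replicate 2, Slc25a37 at -0.56 (adjusted p = 0.000721) and Slc25a5 at 0.41 (adjusted p = 0.0087). Slc25a21 differed by 0.31 ± 0.33 with all arrays (adjusted p = 0.679) and was called at 0.79 ± 0.17 without RApIC replicate 2 (adjusted p = 0.0129). Slc25a44 differed by 0.10 ± 0.16 (adjusted p = 0.804) and Slc25a33 by 0.33 ± 0.13 (adjusted p = 0.16). RApIC replicate 2 was also the RApIC array with the lowest erythroid and T- and NK-cell marker medians (-0.24 and 0.04 relative to the PBS mean, against 0.59 and 1.10 in replicate 1 and 0.61 and 1.08 in replicate 3). Its macrophage, monocyte and dendritic marker median was instead the highest (0.25, against -0.03 in replicate 1 and 0.03 in replicate 3). Its HSC marker median lay nearest the PBS mean (-0.17, against -0.65 and -0.57). The part of these markers was not tested.

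**Figure D4:**
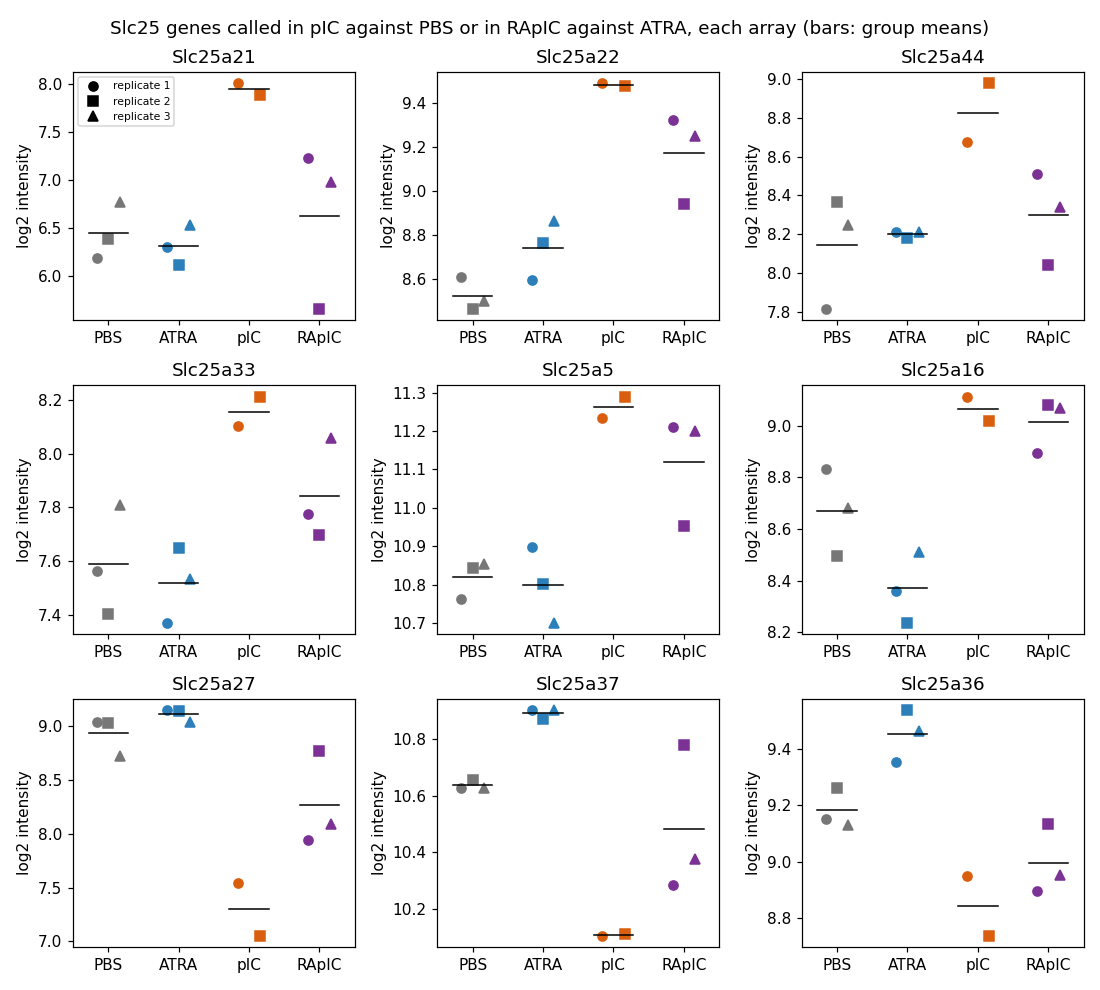
Log2 intensity (vertical axes, each with its own range) on each array of the 4 groups (horizontal axis) for the 9 Slc25 genes called in pIC against PBS or in RApIC against ATRA, with bars at group means and a symbol for each replicate. RApIC replicate 2 (purple square) is the RApIC array nearest the PBS and ATRA values in Slc25a22, Slc25a5, Slc25a27 and Slc25a37, and not in Slc25a16.

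The responses to polyI:C without and with ATRA share no arrays and could be set side by side. Over the 46 members the log2 differences correlated with Pearson's r = 0.781 and Spearman's rho = 0.759 (0.717 and 0.742 without Slc25a27), beside 0.811 and 0.609 over all 22180 genes. The values come from 1 normalisation and 1 fit, and genes are not independent replicates. The sign was the same in 35 of the 46 members (76.1%, beside 68.8% of all genes) and in all 8 members called in pIC against PBS. Those 8 were picked by their pIC against PBS difference. The share among all genes called there was not computed, so the count of 8 is not read as a trait of the carriers.

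**Figure D5:**
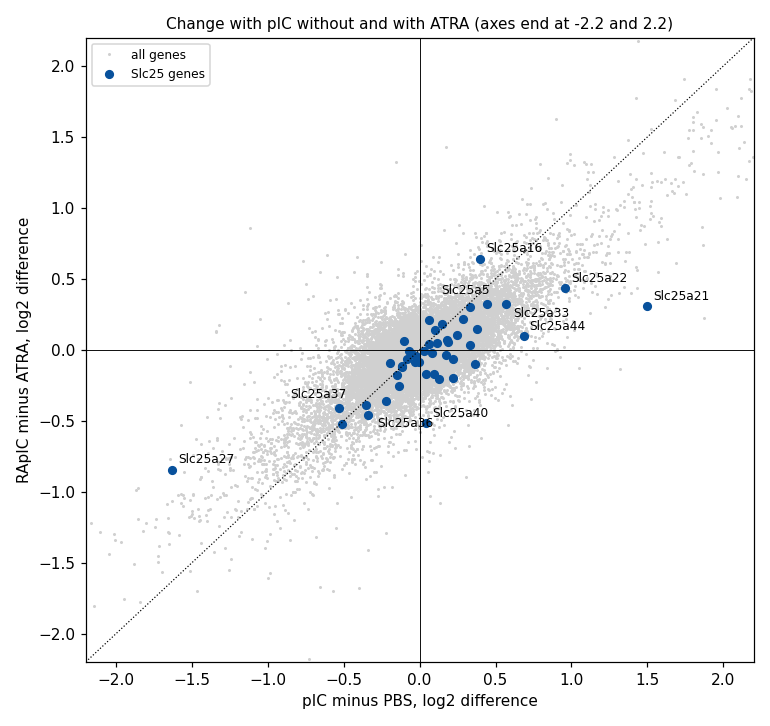
Log2 difference of RApIC minus ATRA (vertical axis) against pIC minus PBS (horizontal axis) for the Slc25 genes (blue) and all genes (grey), with a dotted line of equality and the farthest grey points outside the axes. Slc25a21, Slc25a44 and Slc25a27 lie nearer 0 on the vertical than on the horizontal axis, and Slc25a16 lies above the line.

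An average of both responses, added after the values were seen, called 14 members (30.4%, beside 22.1% of all genes). Of these, 9 rose (19.6%, beside 12.2%): the 6 named in pIC against PBS, together with Slc25a12 (0.18 ± 0.05, adjusted p = 0.0314), Slc25a20 (0.25 ± 0.07, adjusted p = 0.0284) and Slc25a38 (0.32 ± 0.09, adjusted p = 0.0312). The other 5 fell (10.9%, beside 9.89%): Slc25a27 (-1.24 ± 0.15), Slc25a23 (-0.52 ± 0.12), Slc25a37 (-0.47 ± 0.08), Slc25a36 (-0.40 ± 0.07) and Slc25a13 (-0.29 ± 0.08). The calls of Slc25a12 and Slc25a38 were each lost in 6 of the 11 fits with 1 array left out and that of Slc25a20 in 7, and those of Slc25a12 (adjusted p = 0.0657) and Slc25a20 (0.0611) were lost with a replicate block too. The calls of Slc25a21 and Slc25a44 were lost in 6 and 7 of the 11 fits, and those of Slc25a13 (adjusted p = 0.101) and Slc25a23 (0.0505) without pIC replicate 2. The count was 9 without RApIC replicate 3, where 4065 of all genes were called, against 4898 with all arrays. It was 17 without RApIC replicate 2, beside 26% of all genes in that fit (11 rises beside 14% and 6 falls beside 12%). The member count thus moved with the number of all genes called. In Slc25a3, Slc25a5, Slc25a16, Slc25a22 and Slc25a23 (10.9%, beside 10.3% of all genes) the 5 arrays with polyI:C did not overlap the 6 without it.

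Against PBS, RApIC called Slc25a22 alone (2.17%, beside 3.11% of all genes, 1.61% for rises and 1.51% for falls), which rose by 0.65 ± 0.11 (1.57-fold, adjusted p = 0.0132). The call was lost without PBS replicate 2 (adjusted p = 0.061), RApIC replicate 1 (0.0503) or RApIC replicate 3 (0.0662). In 7 members (15.2%, beside 20.3% of all genes) the RApIC and PBS arrays did not overlap. Without RApIC replicate 2 the count was 6 (13%, beside 11.1% of all genes): Slc25a5, Slc25a21 and Slc25a22 rose (beside 5.48% of all genes), and Slc25a23, Slc25a27 and Slc25a37 fell (beside 5.65%).

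ATRA alone called no Slc25 gene (0 of 46, beside 0.00451% of all genes, a single gene). At an unadjusted p under 0.05 there were 7 members (15.2%, beside 6.8% of all genes), and in 11 members (23.9%, beside 12.7%) ATRA arrays lay wholly above or below the PBS arrays. The largest difference was that of Slc25a40, a carrier related to the glutathione importer Slc25a39, which read 7.09, 7.33 and 7.39 on the PBS arrays and 7.82, 7.69 and 7.49 on the ATRA arrays (0.40 ± 0.16, adjusted p = 0.692). Slc25a16 differed by -0.30 ± 0.11, Slc25a13 by 0.29 ± 0.10, Slc25a36 by 0.27 ± 0.09 and Slc25a37 by 0.26 ± 0.11 (adjusted p between 0.608 and 0.723). The other two of the 7 were Slc25a51 (0.21 ± 0.09) and Slc25a53 (0.20 ± 0.08). In pIC against PBS, which shares the PBS arrays, Slc25a16, Slc25a13, Slc25a36 and Slc25a37 differed by 0.40, -0.22, -0.34 and -0.53, with the sign turned, and Slc25a40, Slc25a51 and Slc25a53 by 0.04, 0.13 and 0.04, with the same sign.

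RApIC against pIC, which compares ATRA with no ATRA under polyI:C, called none of the 46 members and no gene at all, with 8 members (17.4%, beside 10.1% of all genes) at an unadjusted p under 0.05. In 15 members (32.6%, beside 27.2% of all genes) the RApIC and pIC arrays did not overlap. Slc25a21 differed by -1.32 ± 0.37 (adjusted p = 0.299), Slc25a27 by 0.97 ± 0.22 (adjusted p = 0.259), Slc25a44 by -0.53 ± 0.17 and Slc25a37 by 0.37 ± 0.12. Without RApIC replicate 2 the differences of Slc25a21 and Slc25a27 were -0.84 and 0.72, again without a call. The test of whether ATRA changed the response to polyI:C (the interaction) also called no member and no gene, with 7 members (15.2%, beside 6.27% of all genes) at an unadjusted p under 0.05. It gave -1.19 ± 0.50 for Slc25a21, 0.79 ± 0.30 for Slc25a27, -0.59 ± 0.23 for Slc25a44 and -0.53 ± 0.16 for Slc25a22 (adjusted p between 0.755 and 0.789). Without RApIC replicate 2 these were -0.71, 0.54, -0.46 and -0.41, again without a call.

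Genes that work with the carriers were read from the same fit, beside the 14.7% of all genes called in pIC against PBS (8.94% as rises). Of 14 measured genes of the import route that inserts carriers into the inner membrane, 7 rose and none fell (median 0.35). Tomm70a, the outer-membrane receptor for carrier precursors, rose by 0.74 ± 0.13, the receptor Tomm22 by 0.63 ± 0.12 and the intermembrane-space chaperone Timm13 by 0.58 ± 0.11 (adjusted p between 0.00625 and 0.00769). With single arrays left out the number of rises ran from 1, without pIC replicate 2, to 8. In RApIC against ATRA 2 of the 14 rose, beside 3.5% of all genes.

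Of 13 genes of heme and iron-sulfur cluster synthesis, 6 rose and 1 fell in pIC against PBS. In RApIC against ATRA 2 rose, beside 3.5% of all genes. Tmem14c, which moves a heme precursor across the inner membrane, rose by 0.71 ± 0.11, Glrx5, of iron-sulfur cluster assembly, by 0.45 ± 0.10, and Alad, the second enzyme of heme synthesis, by 0.73 ± 0.17. The number of rises was 1 without either pIC array. On the same arrays 5 of 9 erythroid markers rose. Of the carriers that red-cell precursors depend on, Slc25a37 fell, and Slc25a38 differed by 0.33 without a call (adjusted p = 0.143). The part of erythroid cells in these values was not tested.

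Of 10 genes of mitochondrial folate and glycine metabolism, 2 rose and 1 fell in pIC against PBS. The folate-cycle enzyme Mthfd2 rose by 1.53 ± 0.22 (adjusted p = 0.00285) and Shmt2, which makes glycine from serine, by 0.77 ± 0.12 (adjusted p = 0.00398), and Mthfd2l fell by 0.49 ± 0.13. Mthfd2 and Shmt2 rose in RApIC against ATRA as well, by 0.96 ± 0.20 and 0.46 ± 0.11, and neither was called there without ATRA replicate 1, ATRA replicate 3, RApIC replicate 1 or RApIC replicate 3. The folate carrier Slc25a32, whose substrate they use, was not called in either comparison (0.17 ± 0.19 and -0.04 ± 0.17).

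Of the 4 enzymes of the malate-aspartate shuttle, 2 rose in pIC against PBS, Mdh2 by 0.53 ± 0.10 and Got1 by 0.51 ± 0.12, with Got2 at 0.21 ± 0.08. None was called in RApIC against ATRA. Of 15 genes of carnitine transfer and fatty acid oxidation, 2 rose and 1 fell in pIC against PBS: the acyl-CoA dehydrogenases Acadl (1.30 ± 0.19) and Acadvl (0.45 ± 0.12) rose, and Hadh, a later enzyme of the same cycle, fell by 0.60 ± 0.09. In RApIC against ATRA 2 of the 15 rose and 2 fell, beside 3.5% and 3.71% of all genes.

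Of 19 other mitochondrial transporters, 5 rose and 2 fell in pIC against PBS. Sfxn4, a sideroflexin needed for iron-sulfur cluster formation, fell by 1.33 ± 0.14 (adjusted p = 0.000801) and by 0.79 ± 0.12 in RApIC against ATRA. Mtch2, an outer-membrane relative of the carriers, rose by 0.52 ± 0.11, and Mpc1, of the mitochondrial pyruvate carrier, by 0.63 ± 0.13. Of 11 regulators of mitochondrial biogenesis, 1 rose, Pprc1 by 0.54 ± 0.11, and 1 fell, Ppargc1a by 0.83 ± 0.22, with Polrmt, the mitochondrial RNA polymerase, at 0.22 ± 0.09. Ppargc1a, a coactivator of mitochondrial genes, fell in RApIC against ATRA too, by 1.0 ± 0.19.

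Without pIC replicate 2 no malate-aspartate enzyme and no other transporter was called as a rise in pIC against PBS, and without either pIC array Pprc1 was not. The number of folate and glycine genes that rose stayed at 2 or 3 with each array left out. In RApIC against ATRA 7 of the 14 import genes, 5 of the 19 other transporters, 3 of the 13 heme and iron-sulfur genes and 2 of the 10 folate and glycine genes rose without RApIC replicate 2. Of all genes, 6.98% rose in that fit. Without RApIC replicate 1 or RApIC replicate 3 no gene of these 4 lists rose, and the import count was also 0 without ATRA replicate 2 or 3 and the heme and iron-sulfur count without ATRA replicate 1 or 2. The fall of Ppargc1a was not called in RApIC against ATRA without ATRA replicate 1, RApIC replicate 1 or RApIC replicate 3, nor in pIC against PBS without PBS replicate 1, PBS replicate 2 or pIC replicate 2.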

How the data were processed

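Total RNA of sorted HSCs was isolated (PicoPure kit), cleared of DNA with DNase and labelled with biotin through in vitro transcription, per the labels' protocols. The deposited values are log2 intensities of 41345 probe sets, 1 column for each of 11 arrays. The tools oligo 1.36.1, RMA and limma 3.28.20 are named per the submitters' processing notes, and the sources used here give no further steps. Quantile scaling in RMA makes array distributions alike, so a shift shared by all genes is not visible, and the number of arrays limits precision.

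Of the probe sets, 23521 have 1 gene symbol in the platform table, 1814 several and 16010 are not listed. Each gene was represented by its brightest probe set (highest 11-array mean), giving 22180 genes, 1082 with more than 1 probe set, and no filter on dim genes. A further probe set shared by Slc25a35 and another gene was not used. limma 3.58.1 in R 4.3.3 fitted 4 group means to all genes (7 residual degrees of freedom, 10.72 with the prior). Tests were two-sided, with the Benjamini-Hochberg adjustment over all genes of each of 6 comparisons and of the average of both polyI:C responses. The model was tested on simulated data. Between arrays with the same replicate number, deviations from the group means correlated weakly (from -0.109 to 0.0976). No pairing was assumed.

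Named with values were members called in any comparison, 17 members and 3 genes of each partner list by a fixed rule, and further members chosen after their values were seen (Slc25a2, Slc25a14, Slc25a18, Slc25a23, Slc25a29, Slc25a30, Slc25a31, Slc25a40, Slc25a43, Slc25a47 and the other uncalled ones). The members and lists were chosen with earlier results of these data known. Settings also tried were limma's array weights, leaving out the dimmest 40% of genes, a replicate block, cyclic loess, the mean of probe sets, a trend and robust prior, a fit of only the groups compared and each array left out. Figures were drawn with Python 3.11.15 and matplotlib 3.10.9.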

Additional observations from a re-analysis of the deposited data

How the results depend on the processing

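With 2 or 3 arrays a group, single arrays decided most calls. The number of Slc25 genes called with each array left out ran from 2 to 12 in pIC against PBS (8 with all arrays), from 1 to 12 in RApIC against ATRA (4), from 0 to 6 in RApIC against PBS (1) and from 7 to 17 for the averaged response to polyI:C (14). It was 0 in every such fit for ATRA against PBS, RApIC against pIC and the interaction. The number of all genes called with each array left out moved too. It ran from 476 to 3214 in RApIC against ATRA and from 159 to 2469 in RApIC against PBS. In pIC against PBS the 7 other alternatives gave 6 to 11 members, with 2835 to 4204 genes called over the whole table. With limma array weights RApIC against ATRA gave 12 members (4588 of all genes in place of 1599) and RApIC against PBS 5 (3127 in place of 690). The weights ran from 0.366 for RApIC replicate 2 to 4.19 for RApIC replicate 3. With the dimmest 40% of genes left out the counts were 8 and 1 (2129 and 1212 of the 13308 genes then tested). That fit leaves out the 4 dim members, so its counts stand on a smaller base. The counts were 6 and 2 with a trend and robust prior (1974 and 1044 of all genes). They were 1 and 0 with only the groups compared (305 and 70). For members the count in RApIC against ATRA thus passed 1.5 times that with the settings used in the text under array weights and with dim genes left out, and the cause was not tested. The numbers of all genes called in ATRA against PBS ran from 1 to 28 and in RApIC against pIC from 0 to 112, with no member among them.

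The sources used here do not say whether equal replicate numbers mark paired samples. With a replicate block 8 members (2835 of all genes) were called in pIC against PBS, 3 in RApIC against ATRA, where Slc25a22 was lost (adjusted p = 0.0537), and 1 in RApIC against PBS. Under cyclic loess Slc25a16 was lost in pIC against PBS (adjusted p = 0.0719). The sign of Slc25a11 in pIC against PBS reversed in the replicate block fit (0.001979) and without PBS replicate 3 (0.0143, in a range from -0.0755), both near 0.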
